A study of Mus musculus with 12 samples.

Results

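Muscle draws fatty acids from blood and from its own lipid droplets, and a set of 10 genes that govern this supply and its oxidation was followed in mouse plantaris, a hindlimb muscle rich in fast fibres. The genes are Lpl, Angptl4, Cd36, Plin2, Pnpla2, Lipe, Cpt1b, Acadm, Ucp3 and Pdk4, chosen by name for their place in the pathway and matched to the arrays by gene symbol. Of the 10, 9 had a transcript cluster (the set of probes read as 1 unit) that carries their symbol alone, out of 22180 genes with such a cluster. The cluster of Cpt1b, the muscle enzyme that loads fatty acids onto carnitine, also carries the symbols of Chkb and Gm44502, so it was assigned to none of them and Cpt1b was not analysed here. Where a gene had several clusters, the brightest on average was taken, which among the 9 concerned Lpl alone. On all 12 arrays, all 9 genes lay above the median value of the table (4.56, log2 scale), and 13747 genes passed the filter that requires this on at least 3 arrays.

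The arrays came from male mice aged 12 weeks, with 3 arrays in each of 4 groups. The groups were sedentary or exercised, each in wild-type mice and in mice without REDD1 (REDD1 knockout). The exercise was 1 acute aerobic bout with sampling 1 hour later, and food had been withheld from all mice for 3 hours before it. REDD1, encoded by Ddit4, is a stress-induced inhibitor of the growth-promoting kinase complex mTORC1. The labels name neither the allele nor the tissues in which REDD1 is missing, and they do not say whether the controls were littermates, whether RNA of several animals was pooled, or on which day an array was run.

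Lipoprotein lipase, the product of Lpl, releases fatty acids from circulating triglyceride at the capillary wall, Angptl4 inhibits it, and the membrane protein encoded by Cd36 takes the fatty acids up. Inside the fibre, Plin2 coats the lipid droplet, and the lipases encoded by Pnpla2 and Lipe break its triglyceride down in sequence. Fatty acids are then oxidised in mitochondria, where Acadm encodes the dehydrogenase for medium chains and Ucp3 an inner-membrane carrier that accompanies fat oxidation. Pdk4 encodes a kinase that switches off pyruvate dehydrogenase and so spares glucose when fat is burned. Fasting and prolonged exercise are known to raise several of these genes in muscle, largely through PPAR nuclear receptors and their coactivator PGC-1alpha.

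All 10 fast-fibre markers were bright on every array, with a lowest value of 12.04, above 99.7% of all values in the table. Ddit4 checked the genotype labels. In wild type it read 6.13, 5.83 and 6.02 on the log2 scale at rest and 9.05, 8.40 and 8.62 after exercise, and in the knockout 5.32, 5.44 and 5.08 at rest and 6.46, 5.72 and 6.77 after exercise. In each condition the knockout arrays lay below the wild-type arrays, though all stayed above the table median. Which stretch of Ddit4 the knockout lacks is not given in the labels. Array medians lay between 4.52 and 4.60. Wild type exercised replicate 1 stood apart for the genes described here: it was the lowest of the 12 arrays for 5 of the 9 genes (Lpl, Cd36, Acadm, Pnpla2 and Pdk4).

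None of the 9 genes passed an adjusted p of 0.05 in limma (Benjamini-Hochberg over all 13747 genes) in any of the 7 comparisons drawn from the 4 groups. In wild type, 0 of 9 were called after exercise, where 0.567% of all genes were called, and 1 of 9 had an unadjusted p under 0.05, against 8.21% of all genes. In the knockout, 0 of 9 were called after exercise (0.276% of all genes), and 2 of 9 passed unadjusted (8.93% of all genes). Knockout against wild type called 0 of 9 in sedentary mice (0.138% of all genes), with 3 of 9 unadjusted (7.7%). In exercised mice it called 0 of 9 (0.175%), with 0 of 9 unadjusted (6.58%). Averaged over genotypes, exercise called 0 of 9 (1.6%), with 2 of 9 unadjusted (11.2%), and averaged over conditions, genotype called 0 of 9 (0.546%), with 2 of 9 unadjusted (9.36%). The difference between the exercise effects called 0 of 9 and 0% of all genes, with 1 of 9 unadjusted (4.51%). The comparisons share groups of arrays and are not independent of one another. Analysis of variance without moderation also called 0 of 9 in each comparison, but it called few of the 13747 genes. It called 12 and 0 for exercise in wild type and knockout, and 1 and 1 for genotype in sedentary and exercised mice. For the averages of exercise and genotype it called 67 and 23. Its 0 of 9 therefore adds little. A miss does not show that levels were alike, so the 95% intervals matter. For exercise averaged over genotypes, the intervals of the 9 genes ran from 0.767-fold to 1.69-fold, and none reached a 2-fold change. In wild type alone they ran from 0.712-fold to 2.18-fold, and in the knockout from 0.511-fold to 1.60-fold.

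**Figure D1:**
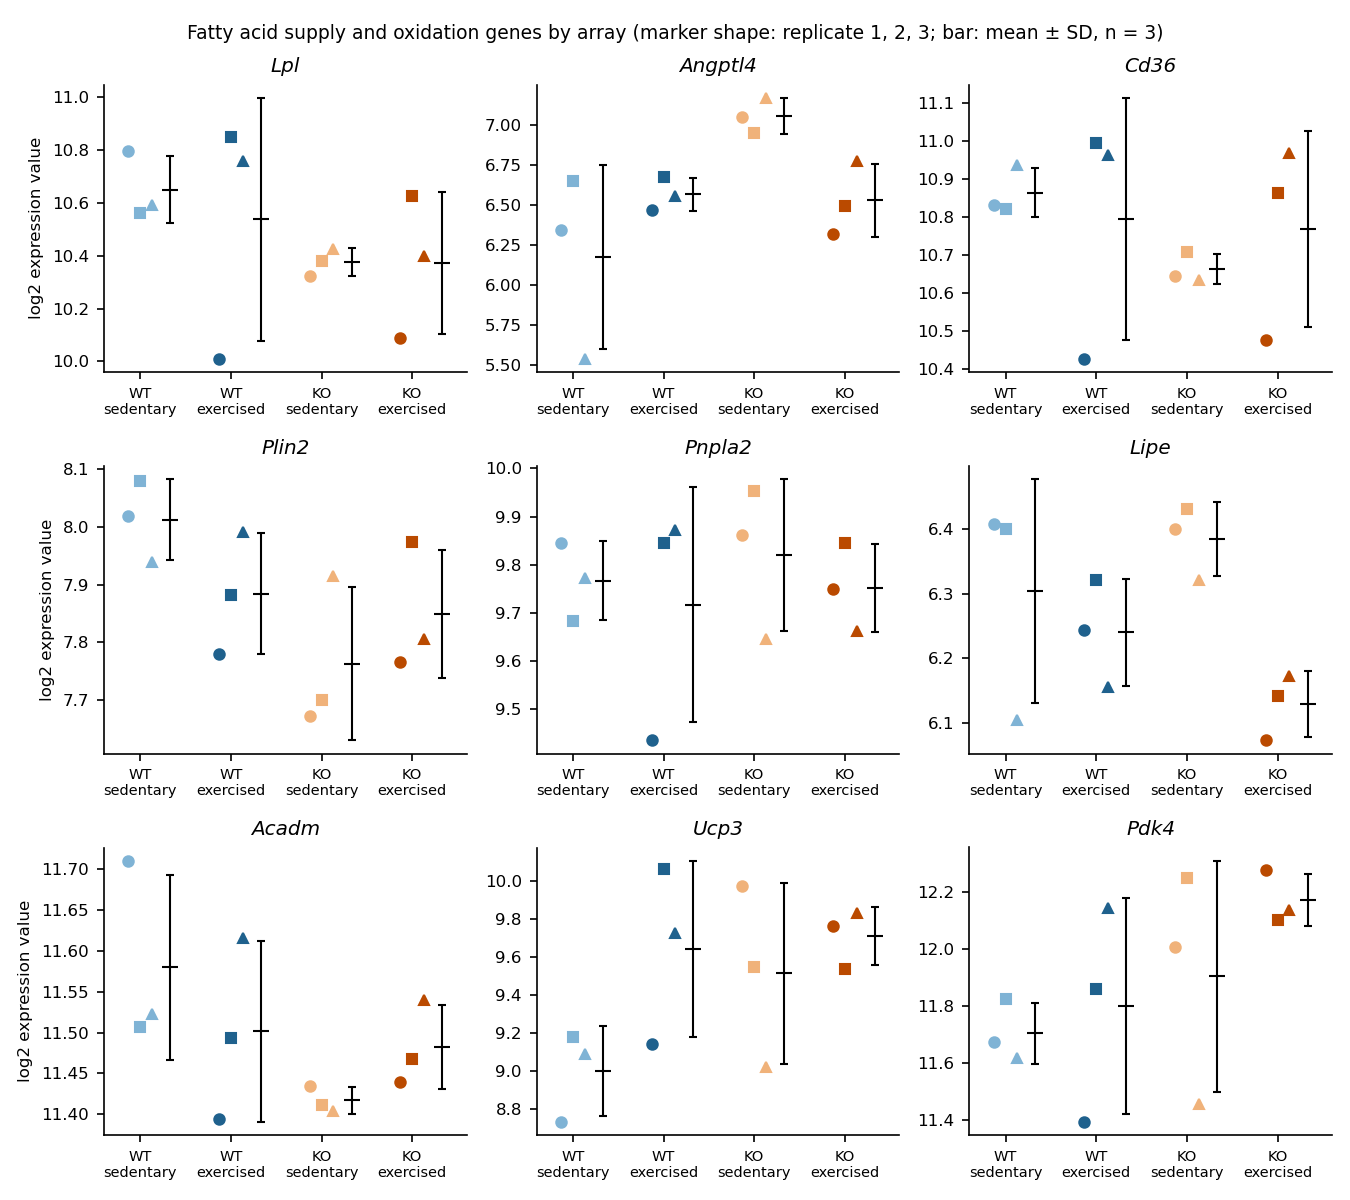
Log2 expression value (y axis) of the 9 genes on each array of the 4 groups (x axis); circles, squares and triangles are replicates 1, 2 and 3 (WT, wild type; KO, knockout), and the black bars are the mean ± SD of 3 arrays. The 3 knockout sedentary arrays of Angptl4 lie between 6.95 and 7.17, above all other arrays, and wild type exercised replicate 1 is the lowest point for Lpl, Cd36, Acadm, Pnpla2 and Pdk4.

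**Figure D2:**
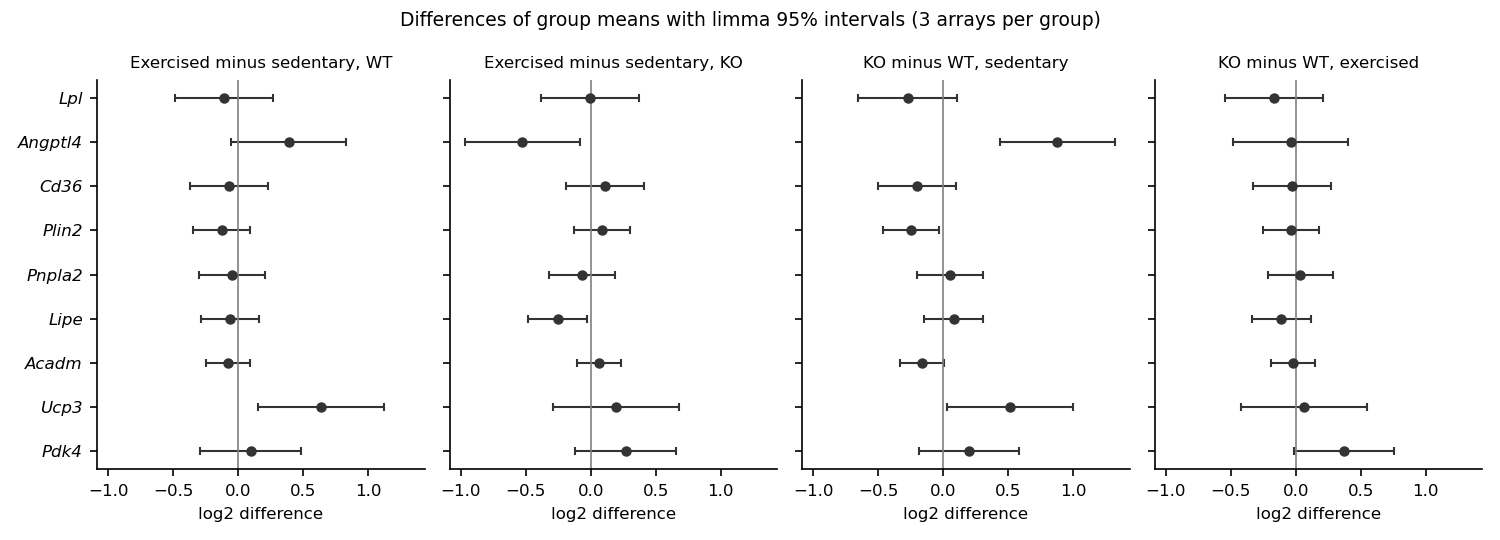
Log2 difference between group means (x axis) for the 9 genes (y axis) in 4 comparisons, with limma's 95% interval as the bar. Most intervals include 0; the largest difference is that of Angptl4 between knockout and wild type in sedentary mice, 0.88.

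On the supply side, Angptl4, the inhibitor of lipoprotein lipase, had the widest spread of the 9 genes. It read 6.34, 6.65 and 5.54 at rest and 6.47, 6.68 and 6.55 after exercise in wild type, against 7.05, 6.95 and 7.17 and 6.32, 6.49 and 6.77 in the knockout. The knockout sedentary arrays were the 3 highest of the 12, and the other groups overlapped one another. In sedentary mice Angptl4 was 1.84-fold higher in the knockout (log2 difference 0.88, SE 0.21, n = 3 per group), with limma's adjusted p = 0.192 and an unadjusted p of 0.000751. After exercise it stood 0.39 higher than at rest in wild type (SE 0.21, adjusted p = 0.699) and 0.53 lower in the knockout (difference -0.53, SE 0.21, adjusted p = 0.431 in limma). The difference between these exercise effects was -0.92 (SE 0.29, 95% interval -1.54 to -0.29), with an unadjusted p of 0.0071 and an adjusted p of 0.997 in limma. Exercised mice of the genotypes differed by -0.04 (95% interval -0.48 to 0.40).

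Wild type sedentary replicate 3, at 5.54, was the lowest Angptl4 value of all arrays and weighed on these numbers. Without it the resting difference was 0.56 (limma's adjusted p = 0.363; over 21 alternatives the difference ran from 0.56 to 1.11 and adjusted p from 0.0524 to 0.509) and the exercise difference in wild type 0.07, while the difference between the exercise effects was -0.60. Angptl4 is also made by fat cells. The adipocyte markers, as the mean deviation of 9 measured genes from their 12-array means, lay between -0.34 and 0.15 in wild type sedentary and between -0.07 and 0.27 in knockout sedentary arrays. Their median difference between the genotypes at rest was 0.29, with 7 of 9 positive and 0 of 9 called by limma (1 with an unadjusted p under 0.05). With exercise their medians were 0.22 in wild type (8 of 9 positive) and -0.17 in the knockout (7 of 9 negative), and the difference between these effects was negative for 9 of 9 (median -0.48), with 0 of 9 called by limma in each (4, 1 and 1 unadjusted). In the order of these 4 comparisons, starting with the genotypes at rest, 46.0%, 45.0%, 49.4% and 53.2% of all genes were positive. In the same order, 7.7%, 8.21%, 8.93% and 4.51% of all genes passed unadjusted. Adipoq, which encodes the fat cell hormone adiponectin, read 6.21, 6.81 and 6.55 in resting wild-type and 6.42, 7.17 and 6.85 in resting knockout muscle. Plin1, the droplet coat of fat cells, read 5.68, 6.38 and 5.21 in the former and 5.63, 6.09 and 6.20 in the latter, so the genotypes overlapped for both. Retn, the fat cell hormone resistin in mice, had the largest resting difference of these markers, a choice made after its values were seen. It read 7.31, 8.32 and 7.89 in resting wild-type and 8.08, 9.33 and 8.81 in resting knockout muscle, with overlap (0.90, SE 0.29, limma's adjusted p = 0.413), a difference about as large as that of Angptl4. The 2 of 9 markers with a lower resting mean in the knockout were Fabp4 and Cidea. Fabp4, the brightest of the 9, read 10.45, 10.93 and 10.29 in resting wild-type and 10.36, 10.56 and 10.57 in resting knockout muscle. Cidea read 5.20, 5.23 and 5.07 in the former and 5.25, 5.04 and 4.89 in the latter. The adipocyte marker Lep was too dim to be tested. Macrophage markers showed the same signs: 8 of 10 were higher in the knockout at rest (median 0.18). With 1 array left out, this resting median ran from -0.02 (without knockout sedentary replicate 3) to 0.34 (without knockout sedentary replicate 2). Between 5 and 10 of these markers were then positive. With exercise 9 of 10 were higher in wild type (median 0.06) and 8 of 10 lower in the knockout (median -0.17), and the difference between these effects was negative for 10 of 10 (median -0.30). Limma called 0 of the 10 in each (2, 1, 1 and 1 unadjusted), beside the shares of all genes given above for the same comparisons. Over all genes the medians of these 4 comparisons lay between -0.02 and 0.02. The macrophage mean deviation overlapped at rest, from -0.18 to 0.08 in wild type and from -0.24 to 0.33 in the knockout. The part of fat cells and macrophages in the Angptl4 values was not tested, and in whole muscle fewer cells of a type cannot be told apart from less RNA per cell.

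The symbol Lpl is carried by 2 clusters that behaved differently. The brighter, taken as the gene's value, had wild-type values of 10.80, 10.56 and 10.59 at rest and 10.01, 10.85 and 10.76 after exercise, and knockout values of 10.32, 10.38 and 10.43 at rest and 10.09, 10.62 and 10.40 after exercise. Knockout sedentary arrays lay below wild type sedentary arrays without overlap, and both exercised groups spread widely. The resting difference was -0.27 (SE 0.18, limma's adjusted p = 0.758). Exercise gave -0.11 in wild type and less than 0.01 in size in the knockout (interval -0.38 to 0.37). Without wild type exercised replicate 1 the wild-type value turned to 0.15.

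The dimmer Lpl cluster measured 6.12, 6.31 and 6.20 in resting and 6.16, 6.21 and 6.17 in exercised wild-type muscle, with 5.93, 5.79 and 5.98 in resting and 6.49, 6.28 and 6.59 in exercised knockout muscle. Knockout sedentary arrays were the 3 lowest of the 12, and knockout exercised arrays lay above them without overlap. Put in place of the brighter cluster, a choice made after its values were seen, it rose 1.47-fold with exercise in the knockout (0.55, SE 0.11, limma's adjusted p = 0.0449) and gave -0.03 in wild type (SE 0.11). The difference between the exercise effects was 0.58 (SE 0.15, adjusted p = 0.997 in limma; unadjusted 0.00156). With each of the 12 arrays left out in turn, the knockout call held in 2 cases, and the adjusted p ranged from 0.0289 to 0.206. The files do not give the strand that either cluster reads. Of the 40 chromosome 8 genes numbered nearest to the brighter cluster on the platform and holding a strand in the RefSeq promoter table (GRCm38.p6), 39 lie on the plus strand. Of the 40 nearest to the dimmer one, 39 lie on the minus strand. Lpl itself has no entry there, so these strands do not show which cluster reads the Lpl messenger RNA. The change of the dimmer cluster was not assigned to that messenger RNA.

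**Figure D3:**
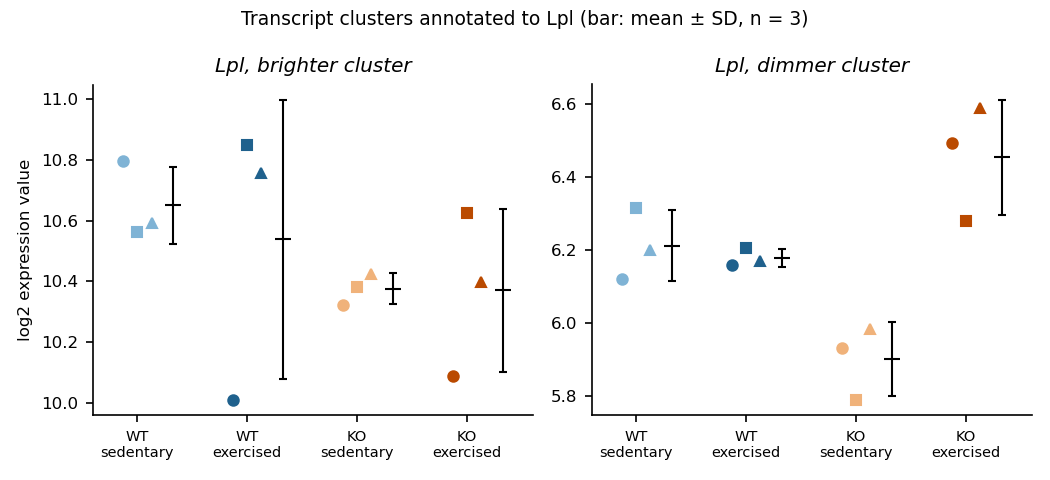
Log2 expression value (y axis) of the clusters annotated to Lpl, by group (x axis), with marker shapes for replicates and bars for the mean ± SD of 3 arrays. The brighter cluster overlaps between exercised and sedentary arrays in the knockout, while the dimmer runs from 5.79 to 5.98 at rest and from 6.28 to 6.59 after exercise.

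Cd36, the uptake protein, varied with the brighter Lpl cluster. It read 10.83, 10.82 and 10.94 at rest and 10.43, 10.996 and 10.96 after exercise in wild type, against 10.64, 10.71 and 10.63 and 10.48, 10.86 and 10.97 in the knockout. At rest the knockout arrays lay below the wild-type arrays without overlap (difference -0.20, SE 0.14, limma's adjusted p = 0.778). Exercise gave -0.07 in wild type, which became 0.12 without wild type exercised replicate 1, and 0.11 in the knockout. Of the other genes for uptake and activation of fatty acids, 10 of 12 were tested and 0 were called by limma for exercise averaged over genotypes. An unadjusted p under 0.05 was found for 1, against 11.2% of all genes. The median of these 10 genes was -0.04, against -0.01 over all genes. The smallest p was that of Gpihbp1, which anchors lipoprotein lipase at the capillary wall (0.25, SE 0.10, adjusted p = 0.361). Gpihbp1 read 6.89, 6.96 and 6.79 in wild type sedentary and 7.73, 7.26 and 7.05 in knockout sedentary arrays, a difference of 0.47 that did not pass (SE 0.15, limma's adjusted p = 0.412). The very low density lipoprotein receptor gene Vldlr (-0.13) and the fatty acid binding protein gene Fabp3 (-0.14) were next.

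Among the droplet genes, Lipe, the hormone-sensitive lipase, had wild-type values of 6.41, 6.40 and 6.10 at rest and 6.24, 6.32 and 6.16 after exercise, and knockout values of 6.40, 6.43 and 6.32 at rest and 6.07, 6.14 and 6.17 after exercise. In the knockout every exercised array lay below every sedentary one, at 0.838-fold (-0.26, SE 0.11, limma's adjusted p = 0.475), and in wild type the groups overlapped (-0.06, SE 0.11). The difference between the exercise effects, -0.19, had an interval of -0.51 to 0.13. Plin2 read 8.02, 8.08 and 7.94 in wild type sedentary and 7.67, 7.70 and 7.91 in knockout sedentary arrays. The knockout arrays lay below the wild-type ones, though the nearest values differed little (0.841-fold, -0.25, SE 0.10, adjusted p = 0.564 in limma). After exercise Plin2 ran from 7.78 to 7.99 in wild type and from 7.77 to 7.97 in the knockout, so the groups overlapped. Pnpla2 overlapped in all 4 pairs of groups, with group means of 9.77, 9.72, 9.82 and 9.75 in the order of the groups above and SDs of 0.082, 0.25, 0.16 and 0.092 (n = 3 each).

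Of the 12 other droplet and triglyceride genes, all were tested and 0 were called by limma for exercise averaged over genotypes. An unadjusted p under 0.05 was found for 4, against 11.2% of all genes. For genotype averaged over conditions 1 was called. That gene was Plin5, the coat protein that ties droplets to mitochondria. Plin5 measured 7.33, 7.26 and 7.42 in resting and 7.44, 7.48 and 7.44 in exercised wild-type muscle, with 7.23, 6.77 and 6.49 in resting and 6.97, 6.76 and 7.02 in exercised knockout muscle. All 6 knockout arrays lay below all 6 wild-type arrays. Averaged over conditions Plin5 fell to 0.696-fold in the knockout (-0.52, SE 0.10, limma's adjusted p = 0.0406; 0.546% of all genes were called). The call held in 2 of the 12 cases with 1 array left out, and it was lost without the filter on dim genes (adjusted p = 0.0517) and without the intensity trend (adjusted p = 0.067). Over 20 alternatives the difference ran from -0.62 to -0.44 and adjusted p from 0.00266 to 0.23. With the smallest p for exercise, the droplet genes Plin4 (0.31, SE 0.09), Plin3 (0.25, SE 0.08) and the Pnpla2 inhibitor gene G0s2 (-0.37, SE 0.11) had adjusted p of 0.106, 0.201 and 0.141 in limma.

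On the mitochondrial side, Ucp3 had the largest exercise difference of the 9 genes in wild type. It read 8.73, 9.18 and 9.09 at rest and 9.14, 10.06 and 9.72 after exercise in wild type, against 9.97, 9.55 and 9.02 and 9.76, 9.54 and 9.83 in the knockout. Wild-type groups overlapped through exercised replicate 1 alone, and knockout sedentary arrays already spanned most of the range. The wild-type difference was 1.56-fold (0.64, SE 0.23, limma's adjusted p = 0.394; unadjusted 0.0131) and became 0.89 without wild type exercised replicate 1 (adjusted p = 0.128, within a range of 0.128 to 0.859 over 21 alternatives). In the knockout it was 0.20 (SE 0.23), or -0.05 without knockout sedentary replicate 3, whose Ucp3 value of 9.02 was the lowest of its genotype. The difference between these effects, -0.44, had an interval of -1.13 to 0.24. At rest Ucp3 stood 0.51 higher in the knockout (SE 0.23, limma's adjusted p = 0.612; unadjusted 0.0401), with overlap. Averaged over genotypes Ucp3 stood 1.34-fold higher after exercise (0.42, SE 0.16, adjusted p = 0.31 in limma).

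Acadm had the narrowest range of the 9 genes. It had wild-type values of 11.71, 11.51 and 11.52 at rest and 11.39, 11.49 and 11.62 after exercise, and knockout values of 11.44, 11.41 and 11.40 at rest and 11.44, 11.47 and 11.54 after exercise. The 12 arrays spanned 0.32 on the log2 scale. At rest the knockout arrays lay below the wild-type arrays (-0.16, SE 0.08, limma's adjusted p = 0.655), and exercised arrays of the knockout lay just above its sedentary arrays (0.07, SE 0.08, adjusted p = 0.885). The average exercise effect was -0.01, with an interval of -0.13 to 0.11.

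The other enzymes of mitochondrial beta-oxidation, 14 of 14 tested, had 0 calls by limma in each comparison. At rest, 13 of 14 were lower in the knockout and the median was -0.19, where all genes had a median of -0.01 and 46.0% positive values. An unadjusted p under 0.05 was found for 5 of the 14, against 7.7% of all genes. The list's mean deviation overlapped between the groups, from -0.01 to 0.18 in wild type sedentary and from -0.22 to 0.05 in knockout sedentary arrays. With any 1 array left out, the median stayed between -0.25 and -0.13. For exercise averaged over genotypes, the smallest p in this list were those of Hadhb (-0.22), Etfa (0.15) and Etfb (0.11). Their adjusted p were 0.448, 0.506 and 0.658 in limma. Hadhb encodes the thiolase subunit of the trifunctional protein and the others the electron transfer flavoprotein. The Hadhb cluster read only 5.31 to 6.17, where that of Hadha read 10.71 to 11.31. Its lowest value was that of knockout exercised replicate 3, beside 5.83 and 5.93 in the rest of that group. The carnitine shuttle and malonyl-CoA list, 9 of 9 tested, likewise had 0 calls by limma. For averaged exercise 1 of the 9 passed unadjusted (11.2% of all genes). The smallest p were those of the thioesterase gene Acot2 (-0.42, SE 0.12, adjusted p = 0.121 in limma), Cpt1a (-0.14) and Crat (-0.08).

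Pdk4, the switch from glucose to fat, measured 11.67, 11.82 and 11.62 in resting and 11.39, 11.86 and 12.15 in exercised wild-type muscle, with 12.01, 12.25 and 11.46 in resting and 12.28, 12.10 and 12.14 in exercised knockout muscle. All 4 pairs of groups overlapped. Exercise gave 0.10 in wild type (SE 0.18, limma's adjusted p = 0.952) and 0.27 in the knockout (SE 0.18, adjusted p = 0.757). Averaged over conditions, the knockout was 1.22-fold higher (0.29, SE 0.13, adjusted p = 0.501 in limma; unadjusted 0.0412). Single arrays set the spread: 11.39 in wild type exercised replicate 1 and 11.46 in knockout sedentary replicate 3. Without the first, the wild-type exercise difference was 0.30, and without the second, the knockout one was 0.04. Of the pyruvate dehydrogenase subunits, kinases, phosphatases and pyruvate carrier genes, 12 of 13 were tested and 0 were called by limma in each comparison. At rest 11 of the 12 were lower in the knockout (median -0.15), where all genes had a median of -0.01 and 46.0% positive values, and 4 of the 12 had an unadjusted p under 0.05, against 7.7% of all genes. The list's mean deviation did not overlap, from 0.04 to 0.06 in wild type and from -0.09 to -0.07 in the knockout, and the median stayed between -0.17 and -0.12 with any 1 array left out. For averaged exercise, Pdha1 (0.09), Dld (0.11) and Pdk2 (-0.11) had the smallest p in this list.

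Ucp3 and Pdk4 had the highest positive exercise differences of the 9 genes averaged over genotypes, so the sequences before their start sites are shown. RefSeq promoter entries matched 7 of the 9 genes, and the 250 bases before the start were searched on both strands for the PPAR core hexamer AGGTCA, the direct repeat AGGTCANAGGTCA, the ERR element TCAAGGTCA (which contains the hexamer), the FOXO element GTAAACA and the glucocorticoid receptor pair ACANNNTGT. The hexamer, on either strand, is in capitals below; the stretches are chr7:100472741-100472990 (plus strand) for Ucp3 and chr6:5496279-5496528 (minus strand) for Pdk4, in GRCm38.p6.
Ucp3: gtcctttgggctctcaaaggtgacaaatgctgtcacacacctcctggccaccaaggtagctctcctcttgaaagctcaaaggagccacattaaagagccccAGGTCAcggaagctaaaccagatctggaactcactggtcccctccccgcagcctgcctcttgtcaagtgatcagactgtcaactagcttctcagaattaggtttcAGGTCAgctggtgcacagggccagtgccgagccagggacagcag
Pdk4: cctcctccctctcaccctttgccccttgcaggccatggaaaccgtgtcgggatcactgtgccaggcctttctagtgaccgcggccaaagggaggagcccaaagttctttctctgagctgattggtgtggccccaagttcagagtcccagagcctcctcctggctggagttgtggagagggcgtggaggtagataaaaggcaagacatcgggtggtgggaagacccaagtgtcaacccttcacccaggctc
Ucp3 held 2 hexamers, 149 and 44 bases before the start, and Pdk4 none of the 5 motifs. In all, 4 of the 7 genes held the hexamer (Ucp3, Cd36, Plin2 and Acadm), against 14.0% of all 32851 promoter entries. A start of Lipe, at chr7:25390113-25390362, held the FOXO element 119 bases and the receptor pair 114 bases before it, in 3.17% and 5.84% of entries. These are matches of letters, not measured sites.

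Of 18 regulators of fat metabolism tested, 4 rose with exercise averaged over genotypes, where 1.09% of all genes were called higher. Ppargc1a, the gene of PGC-1alpha, read 9.33, 8.98 and 9.24 at rest and 10.15, 10.46 and 10.88 after exercise in wild type, and 8.70, 9.61 and 9.29 and then 10.75, 11.003 and 10.95 in the knockout. The groups were far apart in both genotypes, and Ppargc1a rose 2.84-fold on average (1.51, SE 0.14, limma's adjusted p = 2.78e-05). Foxo1, a fasting-activated factor, rose 1.76-fold (0.82, SE 0.12, adjusted p = 0.00164 in limma), from 7.41, 6.88 and 7.43 to 8.11, 8.07 and 8.51 in wild type and from 7.39, 7.71 and 7.15 to 7.99, 7.99 and 8.19 in the knockout. Lpin1, a phosphatidate phosphatase and PGC-1alpha partner, rose 1.38-fold (0.47, SE 0.08, adjusted p = 0.005). Ppara, the PPAR of fat oxidation, rose 1.35-fold (0.44, SE 0.09, adjusted p = 0.0245), a call that held in 5 of 12 cases with 1 array left out. In wild type alone 2 regulators were called (Ppargc1a and Foxo1), where 0.567% of all genes were called. In the knockout 1 was called (Ppargc1a), where 0.276% of all genes were. The difference between the exercise effects called 0 of 18 by limma (0 unadjusted). With the mean over its clusters, Foxo1 was 0.51 higher in wild type and did not pass (adjusted p = 0.121, within a range of 0.00667 to 0.202 over 21 alternatives). For exercise averaged over genotypes, the 95% interval of Ppargc1a ran from 2.30-fold to 3.50-fold, and those of the 9 supply and oxidation genes ended at or below 1.69-fold. Among paralogues, 5 of 11 were tested and Angptl7 was called, rising 1.39-fold (0.48, SE 0.08, adjusted p = 0.00547 in limma). The next were Ucp1 (-0.29, SE 0.13) and Angptl1 (-0.12). Angptl7 was also called in wild type alone (0.57), a call lost in 10 of 21 alternatives.

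**Figure D4:**
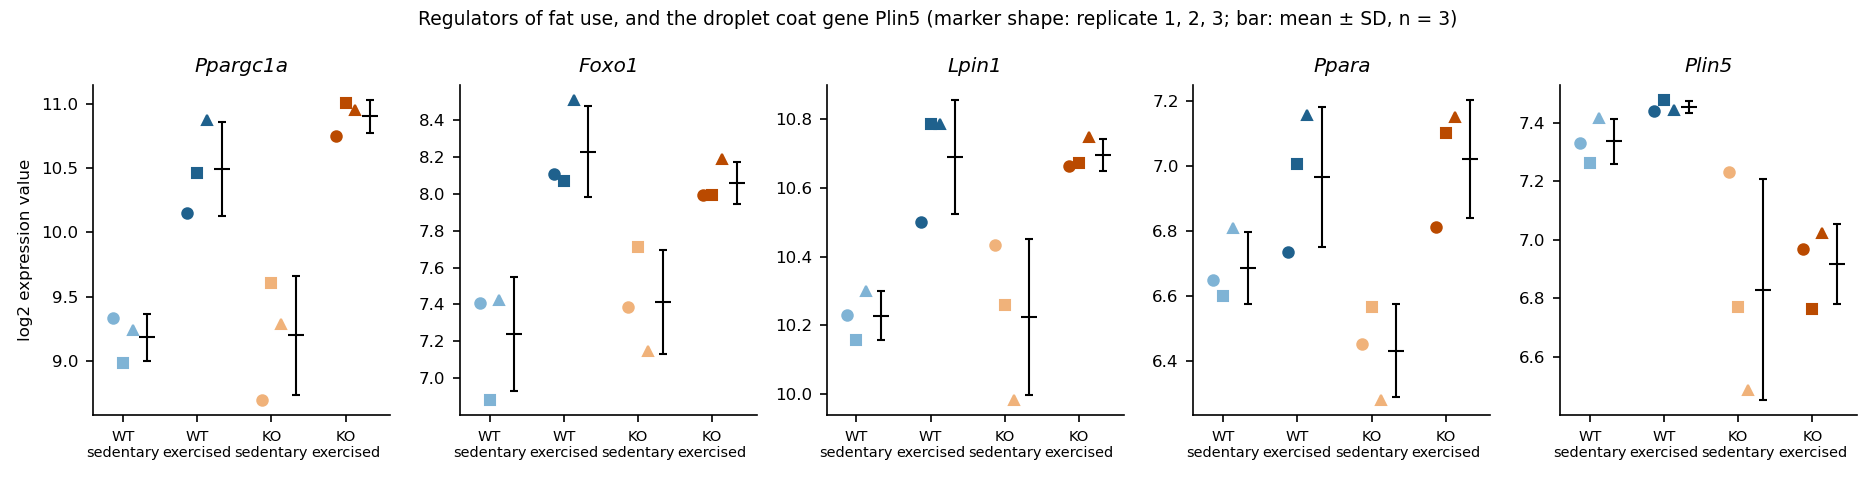
Log2 expression value (y axis) of Ppargc1a, Foxo1, Lpin1, Ppara and Plin5 on each array by group (x axis); marker shapes are replicates and bars the mean ± SD of 3 arrays. Ppargc1a lies at or below 9.61 on all sedentary arrays and at or above 10.15 on all exercised arrays, while the 6 knockout arrays of Plin5 all lie below the 6 wild-type arrays.

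Counting overlap between groups rather than p, the 9 genes differed most at rest. In sedentary mice 5 of 9 had knockout arrays outside the range of the wild-type arrays, where 13.1% of all genes had groups without overlap. Of these, 1 lay above (Angptl4; 5.35% of all genes) and 4 below (Lpl, Cd36, Acadm and Plin2; 7.73% of all genes). The 4 genes were read on the same 6 arrays, so they are not separate observations. In exercised mice 0 of 9 did so, where 11.7% of all genes did. Exercise separated 0 of 9 in wild type (background 12.9%) and 3 of 9 in the knockout (background 13.9%), with Angptl4 and Lipe below (6.77% of all genes) and Acadm above (7.13%). Whether resting and exercised mice differ in these counts was not tested.

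Across the 12 arrays the brighter Lpl cluster and Cd36 varied together. Of the 36 pairs of genes, this pair alone passed a permutation test adjusted over the pairs (Pearson's r = 0.862, permutation p = 3e-04, adjusted p = 0.0108), and by ranks it did not (Spearman's rho = 0.769, permutation p = 0.00487, adjusted p = 0.132). With the group means removed r was 0.870. Without the arrays farthest from the median of Lpl, wild type exercised replicate 1 and knockout exercised replicate 1, r was 0.658, so part of the relation rests on these arrays. The next pairs were Pdk4 with Ucp3 (r = 0.697, rho = 0.636, permutation p = 0.0138 and 0.0295) and Lpl with Acadm (r = 0.694, rho = 0.685, permutation p = 0.0114 and 0.0169), with adjusted p from 0.152 to 0.177. By the largest Pearson's r over the 12 arrays among all tested genes outside the set, Ucp3 was most like Ramp2 (0.875), Ccl6 (0.872) and Chrd (0.850). Lipe was most like Gbp9 (0.876), Add3 (0.874) and Nudt13 (0.849), and Pdk4 most like Eif1-ps3 (0.926), Sdccag8 (0.920) and Uqcrb (0.910). The brighter Lpl cluster was most like Pcm1 (0.946), Bmpr2 (0.937) and Tmem209 (0.931). Cd36 was most like Cpq (0.956), Pds5a (0.947) and Atp11b (0.941). Genes outside the set thus followed Lpl and Cd36 more closely than these followed one another (0.862), so the likeness was not particular to this pair. These are the extremes over all tested genes on the same arrays, so they are descriptions only.

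**Figure D5:**
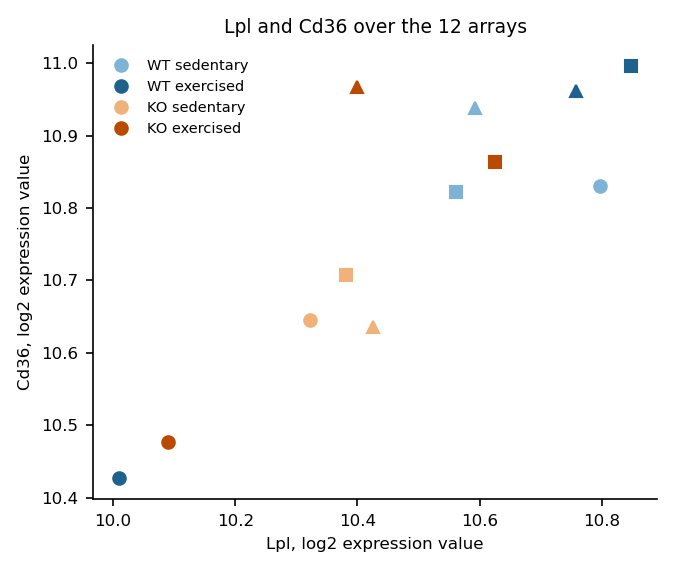
Cd36 (y axis) against the brighter Lpl cluster (x axis), both as log2 expression values, 1 point for each of the 12 arrays, coloured by group with marker shapes for replicates. The points run along a diagonal (r = 0.862), with wild type exercised replicate 1 and knockout exercised replicate 1 at its low end.

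Markers of other cells and fibre types differed between arrays. Endothelial markers, whose cells also carry Cd36 and Gpihbp1, had 0 higher and 2 lower calls of 10 for averaged exercise (Kdr at -0.80 and Cdh5 at -0.28), where 0.509% of all genes were called lower. Their median was -0.24, against -0.01 over all genes. Their mean deviation ran from 0.04 to 0.16 over sedentary and from -0.20 to -0.03 over exercised arrays. The call of Cdh5 held in 1 of 12 cases with 1 array left out. The glycerol channel gene Aqp7, among the adipocyte markers, fell by 0.68 (SE 0.14, limma's adjusted p = 0.02). Its call held in 6 of 12 such cases. Of the 9 adipocyte markers tested, 6 were positive for averaged exercise and 3 negative (median 0.06), where 45.7% of all genes were positive. Aqp7 was the only one called (2 unadjusted, against 11.2% of all genes). Macrophage markers had 0 calls of 10 by limma for averaged exercise (1 unadjusted, against 11.2% of all genes), beside the values given with Angptl4. Slow-fibre markers, 7 of 7 tested, varied most among arrays, from -0.70 in knockout sedentary replicate 2 to 0.72 in knockout exercised replicate 3. With exercise their median was 0.38 in the knockout (7 of 7 positive) and -0.03 in wild type (3 of 7 positive), and the difference between these effects was positive for 7 of 7 (median 0.49), with 0 of 7 called by limma in each (0 unadjusted). In exercised mice 6 of 7 were higher in the knockout (median 0.41), with 0 called by limma and 2 unadjusted (6.58% of all genes). In the order of these 4 comparisons, 49.4%, 45.0%, 53.2% and 49.3% of all genes were positive. With 1 array left out, the slow-fibre medians ran from 0.12 to 0.79, -0.13 to 0.12, 0.17 to 0.85 and 0.096 to 0.66. The last was lowest without knockout exercised replicate 3. Of the 7 differences between the exercise effects, as few as 4 were then positive. In resting knockout muscle the slow-fibre markers stood at -0.27, -0.70 and 0.69. The array at 0.69, replicate 3, is the one whose Ucp3 and Pdk4 values were lowest in that group. Knockout exercised replicate 3, at 0.72, went the other way for Ucp3, with the highest value of its group (9.83), and had the middle Pdk4 value (12.14). Fast-fibre markers stayed between -0.06 and 0.06, with 0 of 10 called (0 unadjusted). The part of these cells and fibres in the values of the 9 genes was not tested.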

How the data were processed

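RNA of 12 plantaris samples was hybridised to Affymetrix whole-transcript arrays, 300 ng of total RNA per sample labelled with a whole-transcript kit, per the labels' protocols. The authors deposited log2 expression values per transcript cluster; the log base was read from their range of 0.357 to 13.9. Partek is named per the submitters' processing notes, without version or role, and background correction, normalization and summarization are not given in the sources used here. Of 41345 clusters, 23521 carried 1 gene symbol in the platform annotation, 1814 several and 16010 none; only the first kind was used, and 23328 of them matched the RefSeq gene table. A gene was tested if it exceeded the table median in at least 3 arrays. Groups were compared with limma 3.58.1 in R 4.3.3, fitting 1 mean per group over all 12 arrays with 8 residual degrees of freedom, followed by eBayes with an intensity trend. For each comparison the Benjamini-Hochberg method adjusted the p-values (both directions tested) across the 13747 genes, and 0.05 was the threshold for a call. Permutation tests of gene pairs used numpy 2.4.6 with 100000 resamples, and scipy 1.17.1 gave the ranks and Spearman's rho. The number of arrays limits the precision. Replicates were numbered in sample order and pair nothing across groups. No 2 arrays were identical (Pearson's r between arrays 0.967 to 0.985); nothing says that arrays came from separate litters, so p-values measure the spread between these samples. The methods were tested on simulated data. The genes, lists and tests were chosen with earlier results of these data known. Of the other lists, called genes were named, otherwise the 3 with the smallest p for averaged exercise; genes singled out beyond this rule were chosen after their values were seen. Alternatives changed the filter, scaling, moderation, cluster choice and arrays used.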

Additional observations from a re-analysis of the deposited data

How the results depend on the processing

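The count of the 9 genes called stayed at 0 in each comparison under other filters, median centring, quantile normalization, other moderation, the mean over clusters, fits of only the 6 arrays compared, and with each array left out in turn (range 0 to 0). The exception was the dimmer Lpl cluster, added after seeing the data, which gave 1 call for exercise in the knockout and a difference of 0.55 against -0.0048; the cause was not tested. The sign changed under some setting in 27 of 63 gene-by-comparison values, and the value of that dimmer cluster was the only one called under any setting. Counts over all genes moved more. By analysis of variance without moderation they were 12 and 0 for exercise in wild type and knockout, 1 and 1 for genotype in sedentary and exercised mice, and 67 and 23 for the averages of exercise and genotype. Without the trend they were 24 for exercise in knockout and 42 for averaged genotype. From the 6 arrays compared they were 25 for exercise in knockout and 13 for genotype in exercised mice. With 1 array left out they ran from 46 to 90 for exercise in wild type, 16 to 71 in knockout, 6 to 27 and 5 to 40 for genotype in sedentary and exercised mice, 144 to 220 and 38 to 149 for the averages of exercise and genotype, and stayed at 0 for the difference. No paired analysis was possible because the labels number the samples 1 to 12 and share no replicate number across groups.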
